A study of Homo sapiens with 18 samples.

Results

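The prostate kallikreins KLK2, KLK3 and KLK4 were followed through an array study of TRIM24 knockdown in prostate cancer cells. They are 3 of 19775 genes that the platform annotation names, and every probe set it gave to 1 of them was used, which came to 12 of 54675 probe sets: 4 for KLK2, 3 for KLK3 and 5 for KLK4. None of the 12 was shared with another gene in that annotation. TRIM24 is a bromodomain-containing transcriptional regulator that can act with the androgen receptor, and dihydrotestosterone (DHT) is a potent natural androgen that activates that receptor.

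Total RNA was measured on 18 arrays in 6 groups of 3. The groups were LNCaP-abl cells with TRIM24 siRNA or control siRNA, both given vehicle; LNCaP cells with TRIM24 siRNA or control siRNA, both given 10 nM DHT; and LNCaP cells with TRIM24 siRNA or control siRNA, both given vehicle, which was ethanol. LNCaP is an established androgen-responsive prostate cancer line, and LNCaP-abl is a subline of it that grows without androgen. Transfection lasted 48 h and DHT or vehicle 24 h, and LNCaP was grown in serum stripped of hormones with charcoal and dextran, so every LNCaP group shared hormone starvation before treatment. No LNCaP-abl array with DHT was analysed here, each line stands for 1 culture model, and nothing in the labels tells whether the samples of a group were grown separately. The p-values then measure only the spread between these samples, which may be technical. In these bulk samples, fewer cells of a type and less RNA per cell cannot be told apart.

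Kallikreins are secreted serine proteases whose genes lie side by side in a cluster on chromosome 19. KLK3 encodes prostate-specific antigen, which liquefies the seminal clot and is measured in blood as a prostate cancer marker; KLK2 encodes a trypsin-like relative that can activate the KLK3 protein; and KLK4 encodes a protease of the prostate and of developing tooth enamel. In luminal prostate cells, the androgen receptor binds DNA elements near KLK2 and KLK3 once androgen is present, and these genes are classic readouts of receptor activity.

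The upstream sequences of the 3 genes are shown because the response of each gene to DHT is described below and the receptor's known proximal element lies in this stretch of KLK3. They are the 250 bases before the gene start in the RefSeq annotation of GRCh38.p14, written 5′ to 3′ on the strand of the gene, at chr19:50854665-50854914 (plus strand) for KLK3, chr19:50873189-50873438 (plus strand) for KLK2 and chr19:50911396-50911645 (minus strand) for KLK4. Capitals mark the 15 bases that begin with the receptor half-site AGAACA in KLK3 and the aligned 15 bases of KLK2.
KLK3: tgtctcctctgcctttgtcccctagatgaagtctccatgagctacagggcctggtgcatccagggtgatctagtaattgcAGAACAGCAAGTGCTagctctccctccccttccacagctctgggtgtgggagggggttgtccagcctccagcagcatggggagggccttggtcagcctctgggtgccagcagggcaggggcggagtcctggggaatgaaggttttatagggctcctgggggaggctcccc
KLK2: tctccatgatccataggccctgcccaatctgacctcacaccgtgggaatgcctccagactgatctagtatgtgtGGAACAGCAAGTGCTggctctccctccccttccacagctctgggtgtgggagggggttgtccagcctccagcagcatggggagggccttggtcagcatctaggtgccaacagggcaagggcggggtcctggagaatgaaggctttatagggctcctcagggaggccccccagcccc
KLK4: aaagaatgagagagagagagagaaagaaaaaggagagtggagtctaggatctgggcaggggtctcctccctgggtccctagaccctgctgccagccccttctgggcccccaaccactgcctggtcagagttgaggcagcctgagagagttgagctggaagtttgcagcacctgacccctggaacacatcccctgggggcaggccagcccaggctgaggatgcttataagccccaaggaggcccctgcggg
The capitals of KLK3 lie at bases -170 to -156 before the gene start. The capitals of KLK2 differ from them by the substitution A1G, KLK3's base first, with positions counted from 1 at the 5′ end of the element. The 14 letters GAACAGCAAGTGCT were present in both genes, in KLK2 at -175 to -162. On either strand, 2 of 35116 upstream windows of the same length held them (0.0057%), and these were the windows of KLK3 and KLK2 themselves. The letters were taken from these genes, so the figure is not a background rate. Neither KLK4 window in the table, the one printed and a second one at chr19:50910739-50910988, held these letters. The half-site AGAACA alone was in the KLK3 window and in 12.4% of all windows, and the symmetrical full element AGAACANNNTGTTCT was in none of the 3 genes' windows and in 1 of all windows (0.00285%). The letters TATAAA, searched on both strands, were at -28 to -23 in KLK3 and at -34 to -29 in KLK2, against 10.7% of all windows. Both matches were on the strand opposite the gene, so the printed sequences read tttata there. Over the windows, KLK3 and KLK2 had 205 identical bases among 241 aligned, 79.2% of their alignment with its gaps, while the printed KLK4 window matched KLK3 over 46.4% and KLK2 over 45.7% of theirs. A match of letters is a description of the sequence and not a measured binding site.

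The values are log2 expression, and 1 unit is a doubling of signal. A probe set was tested if its third-highest value over the arrays reached 5.88, the median of the table, and a call is an adjusted p under 0.05. This filter kept 11 of the 12 kallikrein probe sets. Of the 11, 2 KLK2 probe sets passed it only through the DHT arrays, so that their DHT response was built into the filter. The 1 that failed, KLK2 1555545_at, lay below the median on every array, with group means between 5.06 and 5.45. Each probe set has its own brightness, so levels are compared within a probe set and not between genes. KLK2 and KLK3 are close in sequence, and suffixes _s_at and _x_at mark probe sets that may also bind related transcripts, so signal shared between these genes cannot be told apart.

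The arrays were alike in range, with medians of 5.83 to 5.93, maxima of 14.73 to 14.83 and correlations of 0.996 to 0.998 within groups. TRIM24 siRNA left 23.6% of the control's TRIM24 signal in LNCaP-abl, 22.7% in LNCaP with DHT and 25.1% in LNCaP with vehicle, by the gene's brightest probe set. Counting a marker whose mean reached the table's median in at least 1 group, 6 of 6 measured luminal markers did, KRT19 only in the 2 DHT-treated groups, and 0 of 3 basal, 2 of 4 neuroendocrine, 3 of 5 fibroblast and 3 of 5 leukocyte and endothelial markers did. Averaged over a list, the group means were 10.05 to 11.24 for the luminal markers and lay between 4.80 and 5.86 for the other lists. The log2 difference between the 3′ and 5′ GAPDH control probe sets, a measure of RNA integrity, was higher with TRIM24 siRNA than with control siRNA: 0.64 against 0.56 in LNCaP-abl, 0.63 against 0.56 in LNCaP with DHT, and 0.59 against 0.52 in LNCaP with vehicle. For ACTB it was 1.99 against 1.87 in LNCaP-abl, 2.19 against 1.85 in LNCaP with DHT, where the shift was widest, and 2.05 against 1.87 in LNCaP with vehicle. Averaged over GAPDH and ACTB, it was 1.36 to 1.45 on the TRIM24 siRNA arrays with DHT and 1.15 to 1.24 on the control siRNA arrays with DHT. The 2 siRNAs did not overlap in the other settings either. A fit with this average as a covariate therefore separates it poorly from the siRNA.

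**Figure D1:**
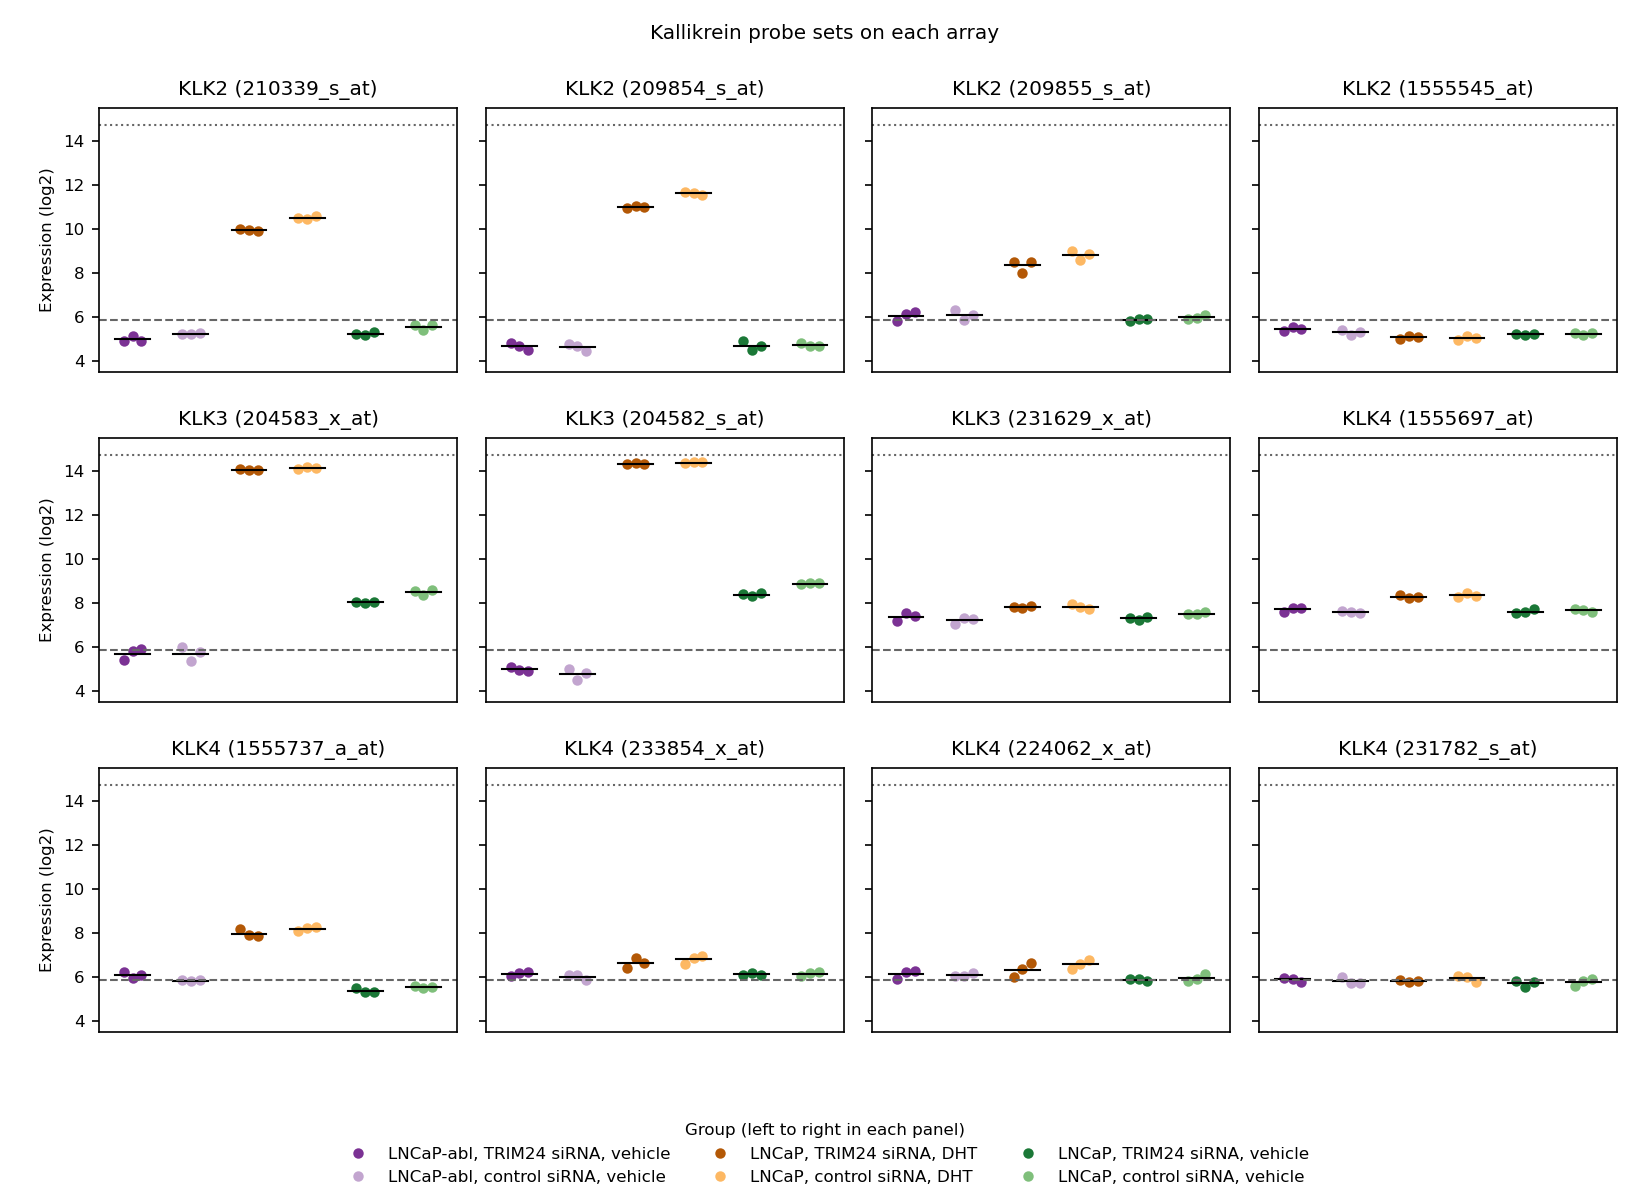
Expression (log2, vertical axis) of the 12 KLK2, KLK3 and KLK4 probe sets on each of the 18 arrays, with groups from left to right in each panel as in the legend. Points are arrays, bars are group means of 3 arrays, the dashed line is the table's median of 5.88 and the dotted line the lowest array maximum of 14.73. DHT-treated arrays stand highest for most probe sets, and KLK3 204582_s_at and 204583_x_at lie just under the dotted line there.

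DHT raised all 3 kallikrein genes in LNCaP with control siRNA. KLK2 rose by 7.11-fold to 119-fold on its tested probe sets, and KLK4 rose by up to 6.26-fold. KLK3 rose by 45.2-fold on 204582_s_at and 49.0-fold on 204583_x_at, but by only 1.23-fold on 231629_x_at. The 2 large KLK3 rises ended within 1 unit of the lowest array maximum, so their size is approximate. In all, 10 of the 11 tested probe sets were higher with DHT by limma, where 18.4% of all 29843 tested probe sets were higher. In a fit without the filter the count was 10 of 12. The arrays of the 2 groups did not overlap for 10 of the 11, against 48.3% of all tested probe sets.

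KLK2 209854_s_at read 11.69, 11.62 and 11.55 with DHT, against 4.82, 4.70 and 4.66 with vehicle. The vehicle arrays lay below the table's median and the DHT arrays far above it. The difference was 6.89 ± 0.10 (SE, n = 3 each; limma, Benjamini-Hochberg adjusted p = 4.34e-17), a 119-fold rise. The size of this rise is approximate, since it is set against signals below the median, and the probe set was among the 2 that passed the filter only through the DHT arrays. KLK2 210339_s_at read 10.48, 10.44 and 10.61 with DHT and 5.62, 5.42 and 5.66 with vehicle. Its rise of 4.95 ± 0.07 was 30.8-fold, with the same limits. KLK2 209855_s_at rose by 2.83 ± 0.14, or 7.11-fold, so the 3 tested KLK2 probe sets agreed in direction and differed widely in size. The dim KLK2 1555545_at stood at a mean of 5.06 with DHT and 5.24 with vehicle, with an adjusted p of 0.0667 in the unfiltered limma fit.

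KLK3 204582_s_at read 14.36, 14.40 and 14.39 with DHT, against 8.86, 8.89 and 8.89 with vehicle. The rise was 5.50 ± 0.09 (limma adjusted p = 1.04e-16). KLK3 204583_x_at read 14.07, 14.16 and 14.12 with DHT and 8.55, 8.38 and 8.57 with vehicle, a rise of 5.62 ± 0.13. Both probe sets were above the table's median without added androgen. They were also the only kallikrein probe sets near the top of the array range, taken as a mean within 1 unit of the lowest array maximum. With DHT and control siRNA, 204582_s_at averaged 0.35 below that maximum and ranked 16 to 27 of 54675 by brightness on its arrays, and 204583_x_at averaged 0.62 below it and ranked 76 to 96. The third KLK3 probe set, 231629_x_at, read 7.94, 7.80 and 7.71 with DHT against 7.48, 7.49 and 7.59 with vehicle. Its rise of 0.30 ± 0.09 (limma adjusted p = 0.0139) was far smaller than that of the other KLK3 probe sets, and its adjusted p was 0.0709 without control siRNA DHT replicate 1.

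KLK4 1555737_a_at read 8.08, 8.24 and 8.28 with DHT, against 5.59, 5.52 and 5.56 with vehicle. The groups were separate, and the rise was 2.65 ± 0.08 (limma adjusted p = 2.36e-13). Its vehicle arrays lay below the table's median, so the size of this rise is approximate. KLK4 1555697_at, the brightest KLK4 probe set, read 8.28, 8.45 and 8.30 with DHT and 7.71, 7.68 and 7.61 with vehicle, a rise of 0.68 ± 0.06 or 1.60-fold. KLK4 233854_x_at rose by 0.66 ± 0.11 and 224062_x_at by 0.62 ± 0.14. The dim KLK4 231782_s_at, at 5.94 with DHT and 5.77 with vehicle, did not pass (difference 0.17 ± 0.10, limma adjusted p = 0.21). How large KLK4's response appears therefore depends on the probe set, from 1.12-fold to 6.26-fold.

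With TRIM24 siRNA, DHT again raised 10 of the 11 tested probe sets, against 16.2% higher among all tested probe sets. Of the 10, 2 were the KLK2 probe sets that passed the filter only through the DHT arrays. KLK2 209854_s_at read 10.97, 11.03 and 10.98 with DHT, against 4.92, 4.51 and 4.67 with vehicle, a 78.4-fold rise that is again set against signals below the median. KLK3 204582_s_at read 14.33, 14.34 and 14.32 with DHT and 8.39, 8.31 and 8.45 with vehicle, a 61.5-fold rise. The size of this KLK3 rise is approximate, since it ended near the top of the array range. KLK4 1555737_a_at read 8.16, 7.89 and 7.88 with DHT and 5.51, 5.30 and 5.32 with vehicle, a 6.07-fold rise. This rise, too, is set against signals below the median. The probe set that did not pass was again KLK4 231782_s_at. KLK4 224062_x_at rose by 0.46 ± 0.14 (limma adjusted p = 0.0156) and lost its call without TRIM24 siRNA vehicle replicate 3 or TRIM24 siRNA DHT replicate 2 or 3, with an adjusted p of up to 0.0947. With the 3′ minus 5′ difference averaged over GAPDH and ACTB added to the fit as a covariate, its rise was 0.21 (adjusted p = 0.269).

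**Figure D2:**
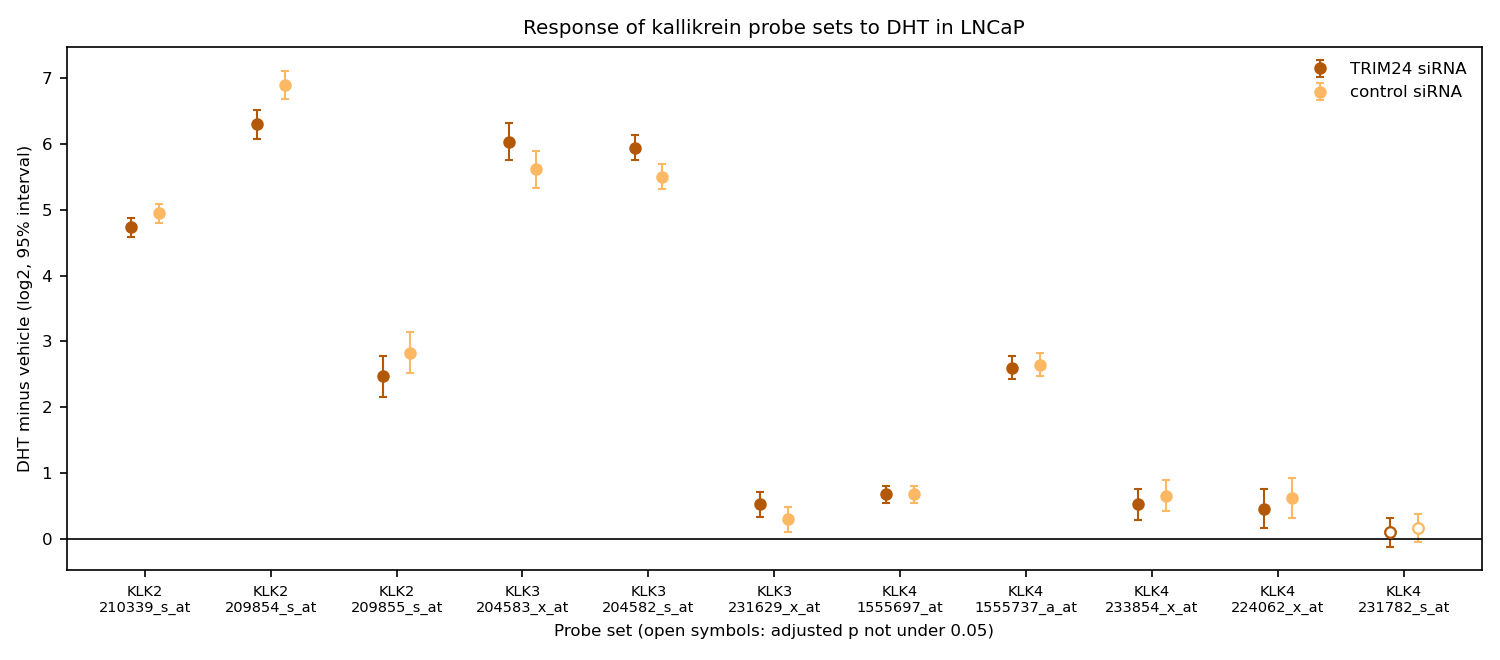
Difference between DHT and vehicle in LNCaP (log2, vertical axis) for the 11 tested kallikrein probe sets, with TRIM24 siRNA in dark and control siRNA in light orange. Points are limma estimates from 3 arrays a group and bars are 95% intervals; the KLK2 probe sets sit lower and the KLK3 probe sets higher with TRIM24 siRNA than with control siRNA, while KLK4 231782_s_at, open, did not pass.

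The kallikrein probe sets that rose with DHT belonged to kallikrein genes that follow one another in the cluster. RefSeq lists the kallikreins in the order KLK1, KLK15, KLK3, KLK2, KLK4, KLK5 and on to KLK14. Some genes of this stretch are not named by the array annotation. They are a lncRNA gene between KLK15 and KLK3, a pseudogene between KLK2 and KLK4, and PPIAP59 between KLK4 and KLK5. Further along, they are another lncRNA gene between KLK5 and KLK6, and KLK9 between KLK8 and KLK10. Among 21 probe sets of 11 other kallikreins, 14 were tested, and with control siRNA 2 were higher with DHT and 1 lower. Over all tested probe sets, 18.4% were higher and 21.4% lower, so these counts do not set the other kallikreins apart from the array. Both that were higher belonged to KLK15, the neighbour of KLK3, and were picked out after their values were seen. KLK15 233477_at averaged 5.88 with DHT and 4.78 with vehicle, a rise of 1.11 ± 0.15 (limma adjusted p = 1.17e-05), and KLK15 221462_x_at rose by 0.32 ± 0.12 (adjusted p = 0.049). Both averaged below the filter value of 5.88 in every group without DHT, so their DHT response may have been built into the filter. The brightest KLK15 probe set, 234495_at, averaged 6.43 with DHT and 6.30 with vehicle and did not pass. KLK5, the next kallikrein beyond KLK4, averaged 6.09 with DHT and 6.26 with vehicle (adjusted p = 0.0688). KLK14, at the far end of the cluster, was lower by 0.18 (difference -0.18 ± 0.06, adjusted p = 0.0181).

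**Figure D3:**
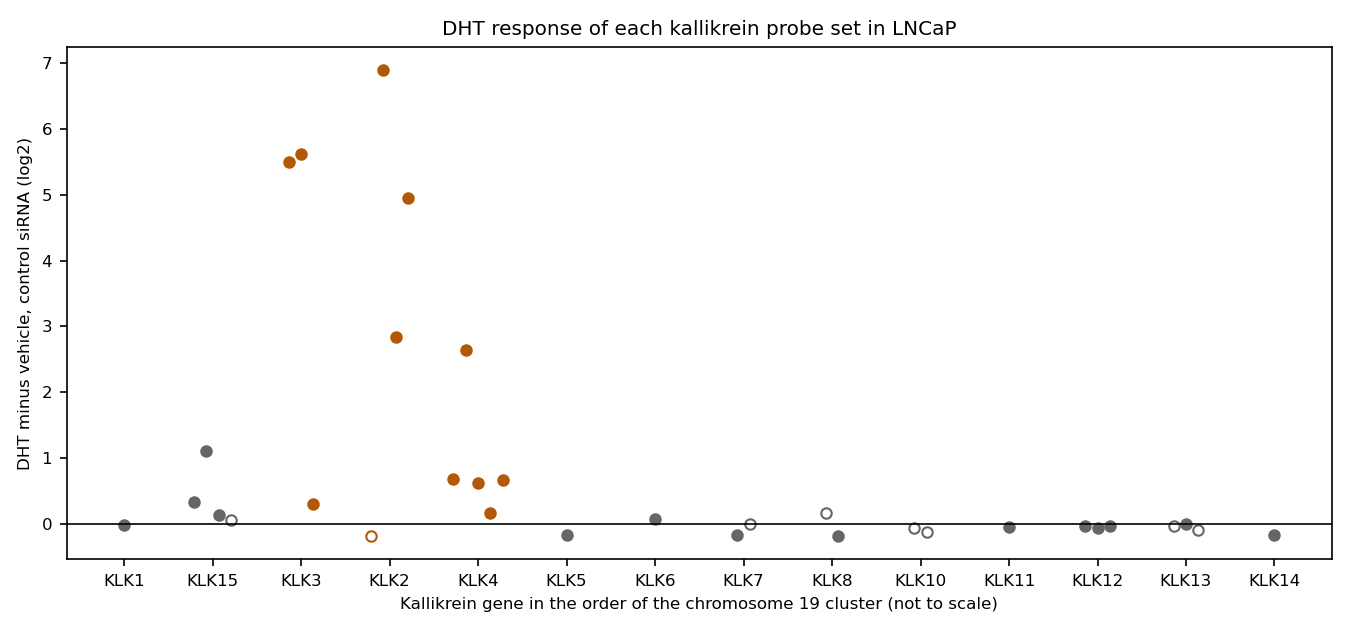
Difference between DHT and vehicle in LNCaP with control siRNA (log2, vertical axis) for every kallikrein probe set, with genes in their order along the cluster and not to scale. Orange points are KLK3, KLK2 and KLK4, grey points the other kallikreins, and open points failed the filter on low values; the other kallikreins lie between -0.18 and 1.11.

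Most other genes known to be induced by androgen rose with DHT as well. Of 11 tested genes on a list of other androgen-induced genes, 10 were higher with DHT with control siRNA, with a median change of 2.42, where the median of all tested probe sets was -0.02. FKBP5, a co-chaperone of steroid receptors, averaged 13.18 with DHT and 9.72 with vehicle. TMPRSS2, a membrane serine protease often fused to ERG in prostate cancer, averaged 12.25 with DHT and 9.70 with vehicle. Among 15 tested substrates, inhibitors and other secretory partners of the kallikreins, 3 were higher and 4 lower (median change -0.08), where 18.4% of all tested probe sets were higher and 21.4% lower. SEMG1, the clot protein that KLK3 cleaves, averaged 6.25 with DHT and 3.62 with vehicle, while ACP3, prostatic acid phosphatase, averaged 12.75 with DHT and 13.24 with vehicle, a fall. Of 9 tested receptor cofactors, 2 were higher and 4 lower (median change -0.09), with GRHL2 at 11.19 with DHT against 10.11 with vehicle.

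TRIM24 knockdown changed the kallikreins far less than DHT did, and the kallikrein calls were mostly KLK2 with DHT and KLK3 with vehicle. With DHT present, KLK2 was lower on all 3 tested probe sets, and KLK3 showed no call by limma (0 of 3 at an unadjusted p under 0.05 too); with vehicle, KLK3 was lower on 2 of 3 probe sets and KLK2 on 1 of 3. Differences of this kind were common on the array: with DHT 4 of the 11 kallikrein probe sets were lower, against 18.1% of all tested, and with vehicle 3 of 11 were lower, against 15.6%. In LNCaP-abl, 1 was lower and 1 higher, against 24.9% and 16.3% of all tested. KLK2 210339_s_at and 209854_s_at lay below the table's median with vehicle. KLK3 204582_s_at and 204583_x_at were near the top of the array range with DHT. The part of these limits in where KLK2 and KLK3 were called was not tested.

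In LNCaP with DHT, KLK2 210339_s_at read 10.01, 9.97 and 9.93 with TRIM24 siRNA, against 10.48, 10.44 and 10.61 with control siRNA. The groups did not overlap, which held for 46.5% of all tested probe sets. The difference of -0.54 ± 0.07 left 68.8% of the control signal (limma adjusted p = 1.07e-05). KLK2 209854_s_at read 10.97, 11.03 and 10.98 with TRIM24 siRNA and 11.69, 11.62 and 11.55 with control siRNA, a difference of -0.63 ± 0.10 that left 64.7% (adjusted p = 0.00013). KLK2 209855_s_at read 8.51, 8.01 and 8.52 with TRIM24 siRNA and 8.98, 8.60 and 8.85 with control siRNA. Here 1 array of each group was lower than its fellows, and the difference of -0.47 ± 0.14 (adjusted p = 0.0193) lost its call when any of 3 DHT-treated arrays was left out (TRIM24 siRNA replicate 2, or control siRNA replicate 1 or 3; adjusted p up to 0.116) or when only the groups compared were fitted (adjusted p = 0.0521). With the 3′ to 5′ covariate, the differences were -0.52 (adjusted p = 0.0165) for 210339_s_at, -0.47 (adjusted p = 0.123) for 209854_s_at and -0.96 (adjusted p = 0.0165) for 209855_s_at. Their SEs were larger with it, as for 209854_s_at at 0.20, against 0.10 without it.

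KLK3 with DHT read 14.33, 14.34 and 14.32 on 204582_s_at with TRIM24 siRNA, against 14.36, 14.40 and 14.39 with control siRNA. The 2 groups did not overlap, but they lay close together near the top of the array range, 0.40 below the lowest array maximum with TRIM24 siRNA and 0.35 below it with control siRNA. The difference of -0.05 had a 95% interval of -0.24 to 0.13 (limma adjusted p = 0.702). KLK3 204583_x_at differed by -0.05, with an interval of -0.33 to 0.23. KLK3 231629_x_at, which was far from the top of the range, averaged 7.83 with TRIM24 siRNA and 7.82 with control siRNA (interval of the difference -0.18 to 0.20). Whether the brightness of the first 2 probe sets limited the difference that could be seen was not tested.

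KLK4 1555737_a_at with DHT read 8.16, 7.89 and 7.88 with TRIM24 siRNA and 8.08, 8.24 and 8.28 with control siRNA. These arrays overlapped, and the difference of -0.23 ± 0.08 (limma adjusted p = 0.0425) was lost when any of 9 arrays was left out, with an adjusted p of up to 0.166. Those 9 were the 3 control siRNA vehicle arrays of LNCaP, control siRNA DHT replicates 2 and 3, TRIM24 siRNA DHT replicates 2 and 3, and replicate 3 of both LNCaP-abl groups. With the 3′ to 5′ covariate it was -0.09 (adjusted p = 0.761). The other 4 KLK4 probe sets differed by -0.24 to -0.06 and did not pass. Of these, 224062_x_at passed without TRIM24 siRNA DHT replicate 3 (adjusted p = 0.0447) and with the covariate, at -0.84 (adjusted p = 0.0142), and 233854_x_at passed without TRIM24 siRNA DHT replicate 2 (adjusted p = 0.0499). Averaged over its 5 probe sets, KLK4 differed by -0.16 (adjusted p = 0.0154).

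In LNCaP with vehicle, KLK3 204582_s_at read 8.39, 8.31 and 8.45 with TRIM24 siRNA, against 8.86, 8.89 and 8.89 with control siRNA. All TRIM24 siRNA arrays lay below all control arrays. The difference of -0.50 ± 0.09 left 70.9% of the control signal (limma adjusted p = 0.000333). KLK3 204583_x_at read 8.06, 8.01 and 8.04 with TRIM24 siRNA and 8.55, 8.38 and 8.57 with control siRNA, a difference of -0.47 ± 0.13 (adjusted p = 0.0122). With the 3′ to 5′ covariate these were -0.53 (adjusted p = 0.00738) and -0.72 (adjusted p = 0.00664). KLK3 231629_x_at differed by -0.22 ± 0.09 (adjusted p = 0.07), and passed when only the 12 LNCaP arrays were fitted (adjusted p = 0.0167) or without LNCaP-abl control siRNA replicate 1 or LNCaP-abl TRIM24 siRNA replicate 1 or 2 (adjusted p of 0.0324 to 0.0487).

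KLK2 210339_s_at with vehicle read 5.22, 5.20 and 5.30 with TRIM24 siRNA and 5.62, 5.42 and 5.66 with control siRNA. The groups did not overlap, though both were below the table's median, where signals are compressed. The difference was -0.32 ± 0.07 (limma adjusted p = 0.00134). KLK2 209854_s_at, at 4.70 with TRIM24 siRNA and 4.73 with control siRNA, and 209855_s_at, at 5.88 with TRIM24 siRNA and 5.98 with control siRNA, did not pass. Averaged over its probe sets, KLK2 differed by -0.12 (adjusted p = 0.0997). None of the 5 KLK4 probe sets passed with vehicle by limma (1 of 5 at an unadjusted p under 0.05), with differences of -0.18 to -0.03. The largest, of KLK4 1555737_a_at, passed without TRIM24 siRNA vehicle replicate 1 (adjusted p = 0.0413), and 224062_x_at passed with the 3′ to 5′ covariate at -0.45 (adjusted p = 0.0496).

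In LNCaP-abl, KLK2 210339_s_at read 4.92, 5.12 and 4.91 with TRIM24 siRNA, against 5.22, 5.21 and 5.29 with control siRNA, a difference of -0.26 ± 0.07 below the table's median (limma adjusted p = 0.0059). The mean of the KLK2 probe sets differed by -0.04 there (adjusted p = 0.6). KLK4 1555737_a_at read 6.22, 5.97 and 6.07 with TRIM24 siRNA and 5.85, 5.81 and 5.85 with control siRNA. It was higher by 0.25 ± 0.08 (adjusted p = 0.0236), with the control arrays below the table's median. This call was lost without TRIM24 siRNA replicate 1 (adjusted p = 0.111), without control siRNA replicate 2 (adjusted p = 0.0641) and with median centring (adjusted p = 0.0605) or quantile normalization (adjusted p = 0.0555). KLK3 204582_s_at read 5.10, 4.97 and 4.91 with TRIM24 siRNA and 5.01, 4.50 and 4.81 with control siRNA. The groups overlapped, and the difference of 0.22 ± 0.09 did not pass (adjusted p = 0.0539). Without control siRNA replicate 1 it was 0.34 (adjusted p = 0.0021), and without TRIM24 siRNA replicate 3 it was 0.27 (adjusted p = 0.0476), so the array left out decides whether this dim probe set passes. Without TRIM24 siRNA replicate 1, KLK3 231629_x_at (0.26, adjusted p = 0.0214) and KLK4 1555697_at (0.19, adjusted p = 0.0249) passed as well.

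**Figure D4:**
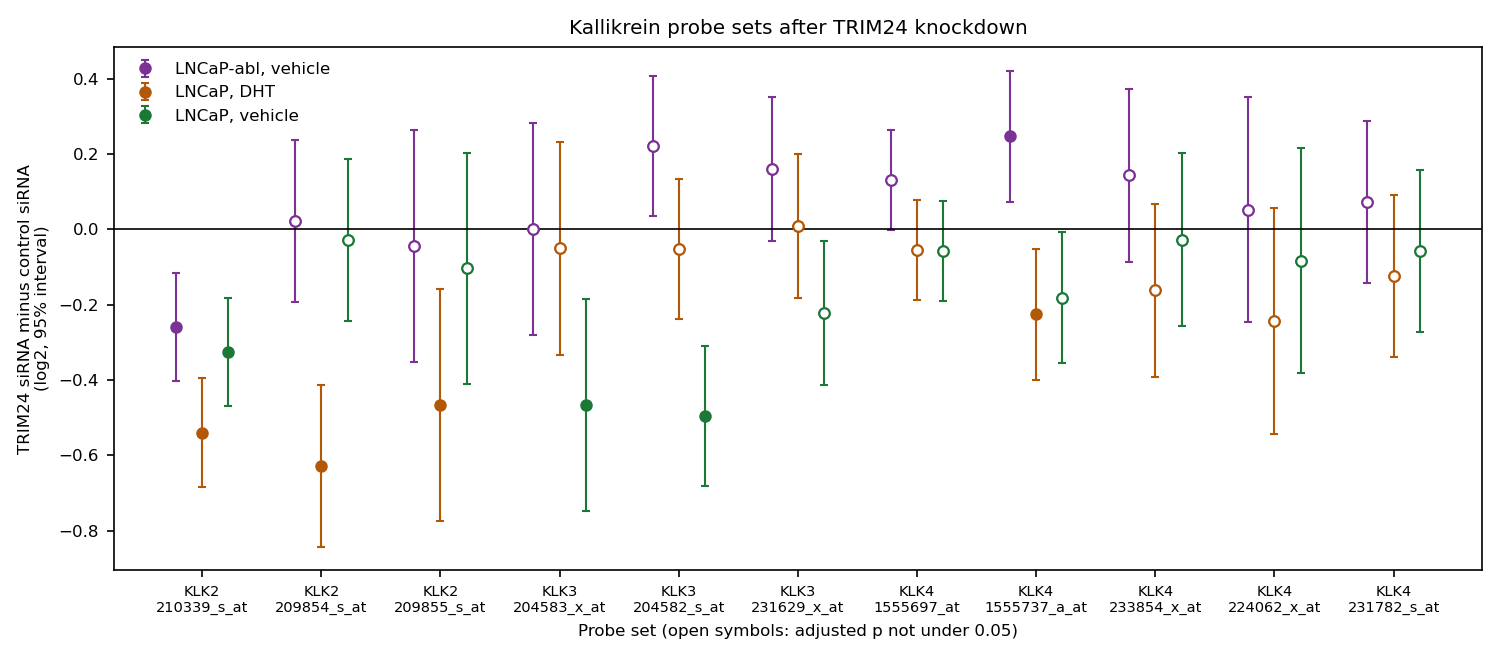
Difference between TRIM24 siRNA and control siRNA (log2, vertical axis) for the 11 tested kallikrein probe sets in LNCaP-abl (purple), LNCaP with DHT (orange) and LNCaP with vehicle (green). Points are limma estimates from 3 arrays a group, bars are 95% intervals, and open points did not pass; the 3 KLK2 probe sets are filled in orange and KLK3 204583_x_at and 204582_s_at in green.

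The difference of these differences was tested directly, as the knockdown effect with DHT minus that with vehicle. Of the 11 kallikrein probe sets, 2 passed, 1 positive and 1 negative, against 6.85% of all tested probe sets (3.49% positive and 3.36% negative). KLK2 209854_s_at fell more with DHT, with an interaction of -0.60 ± 0.14 (limma adjusted p = 0.0187). Its vehicle signal was below the table's median with either siRNA. KLK3 204582_s_at fell more with vehicle, with an interaction of 0.44 ± 0.12 (adjusted p = 0.0429), and its DHT signal was near the top of the range. The part of these limits of range in the interactions was not tested. The KLK3 call was lost without any 1 of 14 arrays, namely the 12 of LNCaP, LNCaP-abl control siRNA replicate 3 and LNCaP-abl TRIM24 siRNA replicate 2 (adjusted p up to 0.101), without the filter (adjusted p = 0.0996) and with median centring (adjusted p = 0.055). With the 3′ to 5′ covariate, the KLK2 interaction was -0.54 (adjusted p = 0.0653) and the KLK3 interaction 0.42 (adjusted p = 0.1). KLK3 204583_x_at had an interaction of 0.41 ± 0.19 (adjusted p = 0.212), with an adjusted p of 0.00673 when only the 12 LNCaP arrays were fitted. As means of their probe sets, KLK2 had an interaction of -0.28 (adjusted p = 0.0276) and KLK3 of 0.36 (adjusted p = 0.023). The DHT and knockdown contrasts share arrays, and these interactions are the same quantities as the differences between the DHT responses with TRIM24 siRNA and with control siRNA.

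The knockdown effect in LNCaP-abl minus that in LNCaP with vehicle passed for 3 of 11 probe sets, all positive, against 6.66% positive and 21.4% in either direction among all tested. KLK3 204582_s_at had the largest, 0.72 ± 0.12 (limma adjusted p = 0.000838), though its LNCaP-abl signals, 4.99 with TRIM24 siRNA and 4.77 with control siRNA, were below the table's median, and the part of this limit in the interaction was not tested. It kept a value of 0.73 with the 3′ to 5′ covariate (adjusted p = 0.00141). KLK4 1555737_a_at followed with 0.43 ± 0.12 (adjusted p = 0.0155), made of a rise in LNCaP-abl and a difference of -0.18 in LNCaP that did not pass. Its vehicle signals in LNCaP were below the table's median with either siRNA. KLK3 231629_x_at had 0.38 ± 0.13 (adjusted p = 0.0432) and lost its call without any 1 of 13 arrays (adjusted p up to 0.106). Those 13 were the 6 vehicle arrays of LNCaP, the 3 TRIM24 siRNA DHT arrays, control siRNA DHT replicate 2, LNCaP-abl control siRNA replicate 1 and LNCaP-abl TRIM24 siRNA replicates 2 and 3. KLK3 204583_x_at, at 0.47 ± 0.19 (adjusted p = 0.0898), passed without LNCaP-abl control siRNA replicate 1 (0.61, adjusted p = 0.0214) or LNCaP-abl TRIM24 siRNA replicate 1 (0.62, adjusted p = 0.0174), with the 3′ to 5′ covariate (0.52, adjusted p = 0.0438) and with array weights (0.45, adjusted p = 0.045). KLK4 1555697_at passed with array weights (0.24, adjusted p = 0.0462). As means of their probe sets, KLK3 had an interaction of 0.52 (adjusted p = 0.000742) and KLK4 of 0.21 (adjusted p = 0.0368).

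The other androgen-induced genes did not move as a block after knockdown. Over all tested probe sets, 16.3% were higher and 24.9% lower in LNCaP-abl, 17.2% higher and 18.1% lower in LNCaP with DHT, and 18.4% higher and 15.6% lower in LNCaP with vehicle. Of 11 tested genes, 1 was higher and 6 lower in LNCaP-abl, 2 higher and 6 lower in LNCaP with DHT, and 2 higher and 5 lower in LNCaP with vehicle, with medians of -0.14, -0.18 and -0.14 against 0.00, 0.01 and 0.01 over all tested probe sets. SLC45A3, the prostate antigen prostein, had differences of -1.19 in LNCaP-abl, -0.99 in LNCaP with DHT and -1.69 in LNCaP with vehicle, each a fall larger in size than that of any kallikrein probe set. TMPRSS2 averaged 10.28 with TRIM24 siRNA and 9.97 with control siRNA in LNCaP-abl, a rise of 0.32. ACP3, another secreted prostate product, was higher with TRIM24 siRNA in each setting, by 0.96 in LNCaP-abl, 0.38 in LNCaP with DHT and 0.49 in LNCaP with vehicle. Of 9 tested receptor cofactors, 6 were lower in LNCaP-abl, 4 lower in LNCaP with DHT, and 1 higher and 2 lower in LNCaP with vehicle, the last near the shares over all tested probe sets. NCOA2, a coactivator that binds steroid receptors, averaged 10.05 with TRIM24 siRNA and 10.61 with control siRNA in LNCaP with DHT. By limma, none of the 14 tested probe sets of other kallikreins was called in any knockdown comparison, and at an unadjusted p under 0.05 there was 1 in LNCaP-abl, 1 in LNCaP with DHT and 0 in LNCaP with vehicle.

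With vehicle, LNCaP-abl held far less KLK3 signal than LNCaP, while the differences in KLK2 and KLK4 were much smaller. In LNCaP with vehicle and control siRNA, KLK2 210339_s_at and 209854_s_at averaged below the table's median. KLK4 1555737_a_at and 231782_s_at did so as well. A further fall of these probe sets could show little. With control siRNA, KLK3 204582_s_at read 5.01, 4.50 and 4.81 in LNCaP-abl, against 8.86, 8.89 and 8.89 in LNCaP. The LNCaP-abl arrays were below the table's median. The difference of -4.11 ± 0.09 left 5.79% of the LNCaP signal (limma adjusted p = 8.23e-16). KLK3 204583_x_at read 5.99, 5.35 and 5.78 in LNCaP-abl and 8.55, 8.38 and 8.57 in LNCaP, a difference of -2.80 ± 0.13. KLK3 231629_x_at differed by -0.30 ± 0.09 (adjusted p = 0.00828), and by -0.22 (adjusted p = 0.0523) without LNCaP-abl control siRNA replicate 1.

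With control siRNA, each tested KLK2 and KLK4 probe set differed by no more than 1.25-fold between the lines. KLK2 210339_s_at was lower by a difference of -0.32 ± 0.07 (limma adjusted p = 0.000604), at 5.24 in LNCaP-abl against 5.56 in LNCaP, both below the table's median, and the mean of the KLK2 probe sets differed by -0.06 (adjusted p = 0.388). KLK2 209854_s_at averaged 4.64 in LNCaP-abl and 4.73 in LNCaP and did not pass. KLK4 1555737_a_at read 5.85, 5.81 and 5.85 in LNCaP-abl, against 5.59, 5.52 and 5.56 in LNCaP, and was higher by 0.28 ± 0.08 (adjusted p = 0.0069). All these arrays lay below the table's median. In all, 4 of the 11 probe sets were lower and 1 higher, against 31.4% and 28.3% of all tested probe sets, so the count alone was near the level of the whole array. With TRIM24 siRNA in both lines, 3 were lower and 1 higher, against 36.6% and 29.6%. KLK3 204582_s_at then differed by -3.39 ± 0.09 and KLK3 204583_x_at by -2.33 ± 0.13, while KLK3 231629_x_at, at 7.38 in LNCaP-abl and 7.30 in LNCaP, did not pass (adjusted p = 0.455). KLK4 1555737_a_at was higher by 0.71 ± 0.08, or 1.64-fold, in LNCaP-abl, set against LNCaP signals below the table's median. Without the filter, the dim KLK2 1555545_at was higher too, by 0.22 (adjusted p = 0.0151).

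Set against LNCaP with DHT, LNCaP-abl was lower on 10 of the 11 probe sets, against 32.4% of all tested, and 2 of the 10 were the KLK2 probe sets that passed the filter only through the DHT arrays. Without the filter, 11 of 12 were called, the added one being KLK2 1555545_at, which was higher in LNCaP-abl by 0.26 (adjusted p = 0.00552). KLK3 204582_s_at averaged 4.77 in LNCaP-abl and 14.38 in DHT-treated LNCaP, below the table's median at one end and near the top of the array range at the other, so no fold is given. KLK2 209854_s_at averaged 4.64 in LNCaP-abl and 11.62 in DHT-treated LNCaP, again from below the median. KLK4 1555737_a_at averaged 5.84 in LNCaP-abl and 8.20 in DHT-treated LNCaP, a 5.14-fold difference. Its size is approximate, since the LNCaP-abl mean was below the median as well. These comparisons reuse the control siRNA arrays of the DHT comparison. LNCaP-abl was given vehicle, so cell line and hormone cannot be told apart here.

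Other androgen-induced genes in LNCaP-abl with control siRNA went both ways against vehicle-treated LNCaP, with 5 of 11 higher and 4 lower (median change 0.02, against -0.01 over all tested probe sets). PMEPA1, a membrane protein of the TGF-beta pathway, averaged 5.94 in LNCaP-abl and 10.49 in LNCaP, and C1orf116 averaged 10.12 in LNCaP-abl and 9.22 in LNCaP. The kallikrein partners and secretory genes were mostly lower, with 9 of 15 lower and 1 higher (median change -0.36). In the same comparison, 31.4% of all tested probe sets were lower and 28.3% higher, which also stands beside the counts of the androgen-induced genes. FN1, which encodes fibronectin, averaged 9.42 in LNCaP-abl and 12.52 in LNCaP, and AZGP1, a secreted prostate glycoprotein, averaged 3.39 in LNCaP-abl and 6.25 in LNCaP. NCOA2 averaged 11.84 in LNCaP-abl and 11.14 in LNCaP.

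Across all 6 groups, the order of levels differed among the genes. On KLK3 204582_s_at, both DHT-treated LNCaP groups stood highest, the vehicle-treated LNCaP groups followed and both LNCaP-abl groups were lowest, with overlap of arrays only between the LNCaP-abl groups. On KLK2 209854_s_at, the control siRNA group with DHT was highest and the TRIM24 siRNA group with DHT next, while the 4 groups without DHT overlapped with their neighbours in the order. On KLK4 1555737_a_at, the DHT groups were highest and overlapped each other, followed by LNCaP-abl with TRIM24 siRNA at 6.09, LNCaP-abl with control siRNA at 5.84, LNCaP with control siRNA and vehicle at 5.55 and LNCaP with TRIM24 siRNA and vehicle at 5.37, with no overlap between neighbours below the DHT groups.

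Genes with the closest profile were found by the root mean square difference over the 6 group means, after each profile was centred, among 13610 genes. The probe set of a gene was the one with the highest mean over all arrays. For KLK2 210339_s_at, they were F5, the coagulation factor V gene, at 0.26, LINC00844 at 0.28 and EAF2 at 0.43. For KLK3 204583_x_at, brightest by that mean although 204582_s_at was brighter in all 4 LNCaP groups, the cation channel gene TRPM8 was closest at 0.71 and ST6GALNAC1 came next. The distances depend on the range of the group means, 8.41 for this probe set and 5.53 for KLK2 210339_s_at. They therefore do not tell which of the 2 genes is matched more closely. For KLK4 1555697_at, whose group means span only 0.74, ELOVL5, a fatty acid elongase gene, was closest at 0.05. The measure of likeness mattered: by Pearson correlation over the same 6 means, 2 of the first 5 genes were shared for KLK2, 0 for KLK3 and 0 for KLK4. The choice of probe set mattered too, for all 3 genes, when the widest-ranging one was used, a setting chosen after the data were seen. For KLK2 209854_s_at, STEAP4, a metalloreductase gene, was then closest at 0.19, F5 was not among the first 5, and 2 of the first 5 genes were shared. For KLK3 204582_s_at, MAF, a transcription factor gene, was closest at 1.07, and 2 of 5 were shared. For KLK4 1555737_a_at, TMPRSS2 was closest at 0.16 and none of 5 was shared. Among the members, by the probe sets with the highest mean, KLK2 and KLK3 lay 1.37 apart, KLK2 and KLK4 2.05, and KLK3 and KLK4 3.22. These distances depend on the range of the group means too, which was only 0.74 for KLK4 1555697_at.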

How the data were processed

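Total RNA of 18 samples, 3 in each of 6 groups taken from the labels' titles, was measured on 1-colour oligonucleotide arrays. The deposited log2 values were made by the authors with RMA, per the submitters' processing notes; its version is not given in the sources used here, nor are scan dates. RMA condenses the probes of a set to a single value and draws arrays to one distribution, and dim signals come out compressed. Values were used as deposited, and probe sets were named from the platform annotation, updated through RefSeq (GRCh38.p14). With 3 arrays a group, the number of arrays sets the precision.

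Of the probe sets, 62 were controls and 29843 passed the filter. One mean per group was estimated over the whole set of arrays in limma (3.58.1, under R 4.3.3; 12 residual degrees of freedom, median residual SD 0.09), with two-sided tests and Benjamini-Hochberg adjustment over all 29843 in each of 10 comparisons. The fit was tested on simulated data. Genes named were all probe sets of the 3 kallikreins, TRIM24, the 5 closest profiles, and up to 4 genes with the smallest adjusted p per list. The members and lists were chosen with earlier results of these data known. Some list genes were not analysed here. Alternatives changed the filter, scaling, variance model, threshold, probe set summary, arrays fitted, a 3′ to 5′ covariate and the replicate block. Sequence work used Biopython (version 1.88).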

Additional observations from a re-analysis of the deposited data

Results flagged for a closer look

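The effect of TRIM24 knockdown differed between hormone conditions or cell lines for 4 kallikrein probe sets, by a test of the difference itself. Between LNCaP with DHT and LNCaP with vehicle, it differed by -0.60 for KLK2 209854_s_at (limma adjusted p = 0.0187) and by 0.44 for KLK3 204582_s_at (adjusted p = 0.0429). Between LNCaP-abl and LNCaP with vehicle, it differed by 0.72 for KLK3 204582_s_at, by 0.38 for KLK3 231629_x_at and by 0.43 for KLK4 1555737_a_at (adjusted p = 0.000838, 0.0432 and 0.0155). Over all tested probe sets, 6.85% differed between hormone conditions and 21.4% between cell lines. Both calls between hormone conditions were lost with the 3′ to 5′ covariate (adjusted p = 0.0653 for KLK2 and 0.1 for KLK3). That of KLK3 204582_s_at was also lost without any 1 of 14 arrays, and that of KLK3 231629_x_at between lines without any 1 of 13. Apart from KLK3 231629_x_at, these probe sets had signals below the table's median or near the top of the array range. The part of these limits was not tested.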

How the results depend on the processing

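The DHT rise kept 9 to 10 called kallikrein probe sets with either siRNA when any 1 array was left out, and LNCaP-abl against DHT-treated LNCaP kept 10. The knockdown and interaction counts moved more. For knockdown in LNCaP with DHT, 4 called probe sets became 2 when only the groups compared were fitted and 2 at an adjusted p under 0.01, with 2 to 4 when arrays were left out in turn (2 without control siRNA DHT replicate 3). For knockdown in LNCaP-abl, 2 became 1 with median centring and 1 at the stricter threshold, with 1 to 3 under leave-one-out (1 without control siRNA replicate 2). For the interaction with DHT, 2 became 1 without a filter, 1 with median centring, 0 with the 3′ to 5′ covariate and 0 at the stricter threshold, with 1 to 2 under leave-one-out. For the interaction with cell line, 3 became 5 with array weights and 1 at the stricter threshold, with 2 to 5 under leave-one-out. Over all probe sets, calls for knockdown in LNCaP with DHT were 10534 and became 4862 with the covariate, whose values did not overlap between the siRNAs there. Calls for the interaction with DHT were 2045 and became 982 without a filter, 3087 with array weights, 782 at the stricter threshold and 1363 without LNCaP TRIM24 siRNA vehicle replicate 1. Calls for the interaction with cell line were 6394 and became 3257 at the stricter threshold, and calls for LNCaP-abl against LNCaP with TRIM24 siRNA were 19739 and became 12670 with the stricter filter, which tests fewer probe sets. As the mean of its probe sets, KLK2 was 0.0249 higher in LNCaP-abl than in LNCaP with TRIM24 siRNA (adjusted p = 0.692), against -0.26 for 210339_s_at alone, since other probe sets enter the mean. The cause of the other changes was not tested. Fits by gene give no count of probe sets.

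The labels share replicate numbers across groups, but same-numbered arrays did not deviate together (correlations of -0.28 to 0.16, median 0.01, over 45 pairs; 6 of 18 arrays correlated best with their own number). With the number as a replicate block, the counts of called kallikrein probe sets stayed equal except 5 against 4 for LNCaP-abl against LNCaP with TRIM24 siRNA and 2 against 3 for the interaction with cell line, where KLK3 231629_x_at had an adjusted p of 0.0527.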
